A study of Mus musculus with 18 samples.

Results

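The granins and the genes that process prohormones are 10 genes of the regulated secretory pathway, chosen by name out of the 47643 genes counted in each library. They comprise the granins Chga, Chgb, Scg2, Scg3 and Vgf, the convertases Pcsk1 and Pcsk2, the carboxypeptidase gene Cpe, and the genes of the convertase partners, Scg5 and Pcsk1n. All 10 passed the filter on low counts that left 13771 genes for testing. RNA was sequenced from spot cultures of CD-1 mouse embryonic dorsal root ganglia (DRG), taken at e13.5 and grown with the mitotic inhibitor FDU until DIV7. Control cultures were collected at DIV7 without injury, and the axons of the other cultures were cut with a blade either 1, 3, 8, 16 or 24 h before collection (hours post injury, HPI), with 3 replicates in each of the 6 groups. By the study's methods the cut was made at DIV7, so the injured cultures were older at collection than control, and hours since injury and added hours in culture cannot be told apart. The ganglia of embryos were dissociated and mixed before plating, and the labels do not state that replicates came from separate litters or cultures, so the p-values measure the spread between these libraries, which may be technical.

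Granins are acidic proteins that aggregate in the trans-Golgi network and fill dense core vesicles, from which neurons release peptides on stimulation. Inside these vesicles, prohormone convertases cut precursors behind pairs of basic residues, and carboxypeptidase E trims the basic residues that remain. The Scg5 protein escorts the convertase encoded by Pcsk2 to the vesicle and allows it to mature, whereas the Pcsk1n protein inhibits the convertase encoded by Pcsk1. Peptidergic sensory neurons of the DRG store their neuropeptides in dense core vesicles.

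Promoter sequence was given for 8 of the 10 genes in the RefSeq table used (GRCm38.p6), with 250 bases before and 50 bases after each start, and was not given for Vgf and Cpe. The palindrome TGACGTCA, the full cAMP response element, stood in 3 of these 8 windows, those of Scg2, Chgb and Pcsk1, and in 1.79% of the 32851 windows of the table. Its first letter lay 68 bases before the start of Scg2, 72 bases before that of Chgb and 78 bases before that of Pcsk1. The shorter TGACG, which the palindrome contains on both strands, stood on either strand in 7 of 8 windows, all but that of Pcsk1n, and in 20.8% of the table. The sequences below show the 30 bases around the palindrome in 3 genes and around the short form in Chga, Scg3 and Pcsk2, read 5′ to 3′ along the gene, with the motif in capitals. In Pcsk2 the motif lies on the opposite strand. They are shown because 7 of the 8 windows hold the short form.
Scg2, chr1:79440076-79440105, minus strand: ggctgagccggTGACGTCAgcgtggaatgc
Chgb, chr2:132781559-132781588, plus strand: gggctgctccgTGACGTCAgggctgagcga
Pcsk1, chr13:75089768-75089797, plus strand: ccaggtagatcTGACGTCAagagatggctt
Chga, chr12:102554886-102554915, plus strand: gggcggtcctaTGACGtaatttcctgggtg
Scg3, chr9:75684068-75684097, minus strand: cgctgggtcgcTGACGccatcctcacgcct
Pcsk2, chr2:143546088-143546117, plus strand: tggcgggcgcgCGTCAcccgggctggcgct

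Positions are counted from the RefSeq start. All 30 bases of the stretches shown for Scg2 and Chgb lie within an exon in GENCODE vM21, whose gene models begin farther upstream, at 79440120 for Scg2 on the minus strand and at 132781278 for Chgb on the plus strand. TGAGTCA, the AP-1 site, stood in 1 of 8 windows (Pcsk1n) against 5.20% of the table, and TATAAA in 1 of 8 (Chga) against 13.6%. The core of the RE1 element bound by REST, read as CAGCACC and GGACAG with 2 bases between them, stood in 0 of 8 windows and in 0.0365% of the table. The spacing with no base between these runs was not in the plan of the search. It stood in 1 of 8 windows, that of Scg2, and in 0.00913% of the table. In Scg2 it lay on the opposite strand with its first letter 13 bases before the start. A match is a run of letters and says nothing of binding in these cultures.

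The genes were expressed at very different levels. Per exon length, Scg5 (ENSMUSG00000023236.7, chromosome 2 of GRCm38 from 113776362 to 113829121) was highest in the uninjured culture, at 190 ± 2.81 RPKM (SD, n = 3). Cpe (chromosome 8 from 64592542 to 64693054) followed at 183 ± 24.8 RPKM, Scg3 (chromosome 9 from 75643189 to 75684056) at 154 ± 18.8 RPKM and Vgf (chromosome 5 from 137026392 to 137033351) at 129 ± 14.1 RPKM. Chga (chromosome 12 from 102554969 to 102565028) had 99.2 ± 4.97 RPKM and Pcsk1n (chromosome X from 7919822 to 7924410) 88.9 ± 18.5 RPKM. Scg2 (chromosome 1 from 79434669 to 79440120) had 34.7 ± 10.2 RPKM, Pcsk2 (chromosome 2 from 143546156 to 143816285) 23.7 ± 2.48 RPKM and Chgb (chromosome 2 from 132781278 to 132795079) 21.6 ± 4.95 RPKM. Pcsk1 (chromosome 13 from 75089826 to 75134861) was lowest, at 1.46 ± 0.469 RPKM, 14.8 times below Chgb. Neighbours in this order had separate ranges over the control libraries only between Vgf and Chga, Pcsk1n and Scg2, Scg2 and Pcsk2, and Chgb and Pcsk1. Scg5 exceeded Cpe in 14 of all 18 libraries and Pcsk2 exceeded Chgb in 9 of 18, so these neighbours were not ordered alike throughout.

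**Figure D1:**
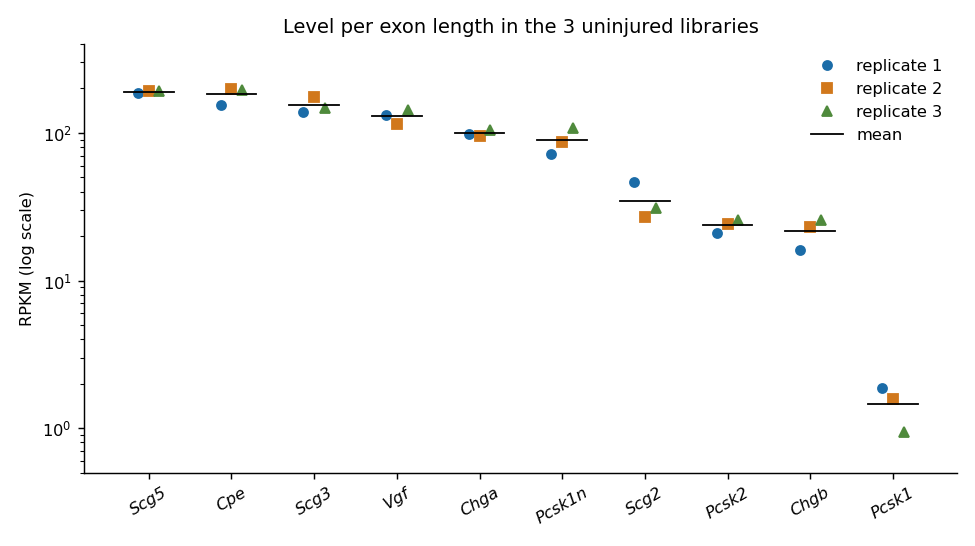
RPKM of the 10 genes in the 3 control libraries, on a log scale, with 1 symbol per replicate and the mean as a line. The genes are ordered by their mean, from Scg5 at 190 RPKM to Pcsk1 at 1.46 RPKM.

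The 10 genes held nearly the same share of all counts in every group. Their mean share was 0.239% in control and lay between 0.232% and 0.240% after injury, and the share of single libraries ranged from 0.210% to 0.256%. The summed level of the 6 genes Chga, Chgb, Scg2, Scg3, Scg5 and Vgf was 1500 to 1563 CPM in control, 1390 to 1681 CPM at 16 HPI and 1394 to 1555 CPM at 24 HPI, so that the groups overlapped. The summed level of Pcsk1, Pcsk2, Cpe and Pcsk1n was 737 to 960 CPM in control, 706 to 925 CPM at 16 HPI and 725 to 924 CPM at 24 HPI.

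Against control, 2 of the 10 genes passed the test at any time point, Pcsk2 at 16 and 24 HPI and Vgf at 16 HPI. By the quasi-likelihood test of edgeR, adjusted over all 13771 genes after Benjamini and Hochberg, 0 of 10 were called at 1 HPI, where 0.0944% of all genes were called higher and 0.182% lower. At 3 HPI 0 of 10 were called, against 0.0436% of all genes higher and 0.145% lower, and at 8 HPI again 0 of 10, against 3.78% higher and 3.9% lower. The number of the 10 genes with an unadjusted p under 0.05 was 0 at 1 HPI, 2 at 3 HPI (Scg3 and Pcsk1n) and 2 at 8 HPI (Pcsk2 and Vgf), and DESeq2 called 0 at each of these time points. At 16 HPI 1 of 10 was called higher, beside 10.7% of all genes, and 1 of 10 lower, beside 11.5%. At 24 HPI 0 of 10 were called higher, beside 5.99% of all genes, and 1 of 10 lower, beside 9.03%. Both shares at 16 HPI, and the share called lower at 24 HPI, were thus close to those of all genes. None of the 10 passed the further condition of a fold change over 2, which 0.029% of all genes passed at 1 HPI and 0.029% at 3 HPI. It was passed by 0.537% of all genes at 8 HPI, by 1.49% of them at 16 HPI and by 0.821% of them at 24 HPI.

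**Figure D2:**
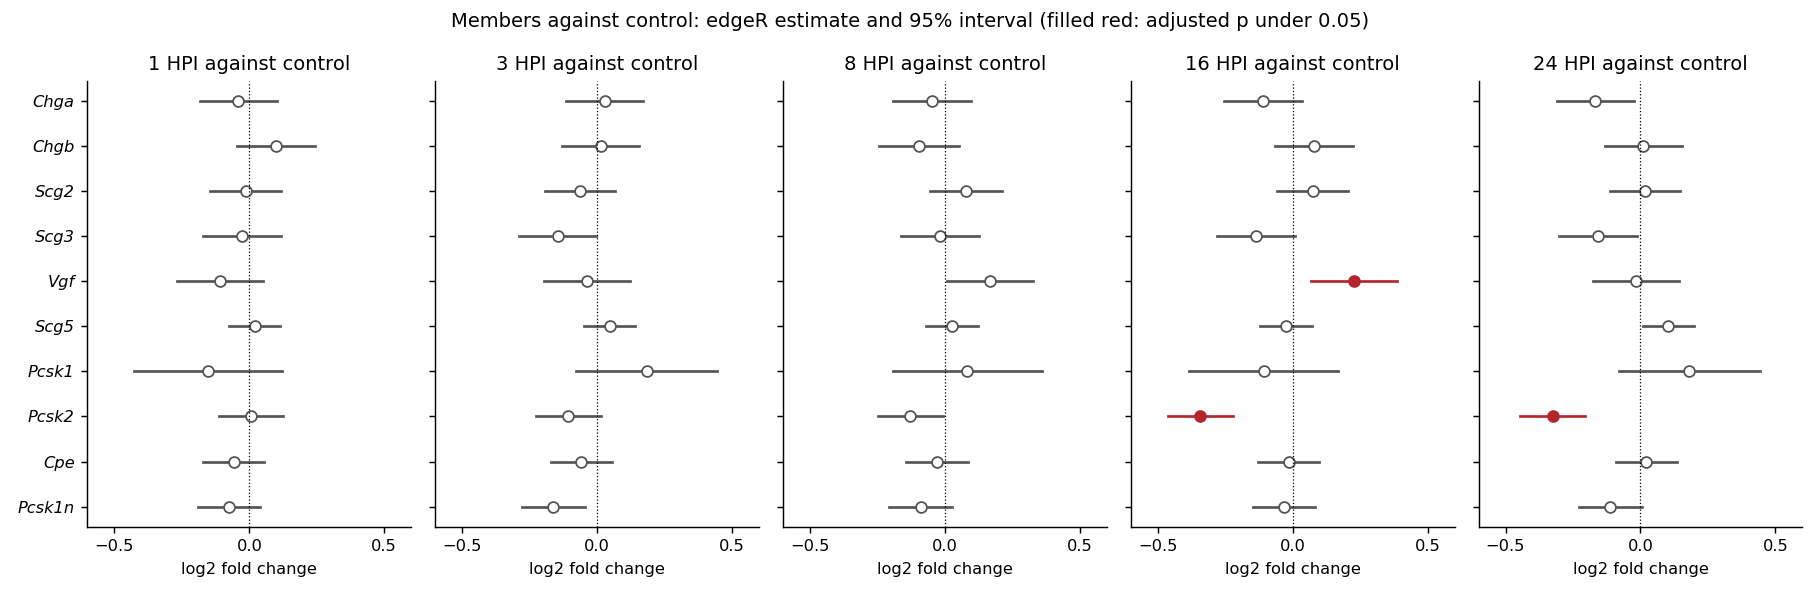
Log2 fold change of each gene against control at 1, 3, 8, 16 and 24 HPI, from edgeR, with its 95% interval. Filled red points have an adjusted p under 0.05, which holds for Pcsk2 at 16 HPI (-0.34) and 24 HPI (-0.33) and for Vgf at 16 HPI (0.23).

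The size of the changes was small throughout. The 95% intervals of the fold changes of the 10 genes lay between 0.744 and 1.18 at 1 HPI, between 0.818 and 1.36 at 3 HPI, between 0.841 and 1.28 at 8 HPI, between 0.725 and 1.31 at 16 HPI and between 0.734 and 1.36 at 24 HPI. The median absolute log2 fold change of the 10 genes was 0.094 at 16 HPI and 0.11 at 24 HPI, beside 0.14 and 0.12 over all genes tested. The median log2 fold change was -0.028 at 16 HPI and -0.0029 at 24 HPI, beside -0.0022 and 0.0020 over all genes. When any difference among the 6 groups was tested, 2 of 10 genes were called, Pcsk2 (adjusted p = 0.000113) and Vgf (adjusted p = 0.00922), beside 30% of all genes. The other 8 genes had adjusted p-values from 0.139 (Pcsk1) to 0.712 (Cpe) in this test.

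Pcsk2, which encodes the neuroendocrine convertase that completes the cleavage of many neuropeptide precursors, fell after axotomy. Its level in replicates 1, 2 and 3 was 166, 192 and 204 CPM in control, 170, 198 and 201 CPM at 1 HPI, and 165, 191 and 170 CPM at 3 HPI. It was 159, 193 and 161 CPM at 8 HPI, 129, 172 and 151 CPM at 16 HPI, and 131, 162 and 160 CPM at 24 HPI. At 3, 16 and 24 HPI the level was lower than the control of the same number in 3 of 3 replicates. The groups separated only at 24 HPI, where the highest library was below the lowest control. The share of all genes that separated in this way was not counted. The mean fell from 187 ± 19.6 CPM in control to 151 ± 21.2 CPM at 16 HPI and 151 ± 17.6 CPM at 24 HPI (SD, n = 3). The log2 fold change was -0.34 ± 0.058 (SE) at 16 HPI (95% interval -0.46 to -0.22, adjusted p = 0.000187, edgeR) and -0.33 ± 0.058 at 24 HPI (95% interval -0.45 to -0.21, adjusted p = 0.000662). At 1, 3 and 8 HPI it was 0.0060, -0.11 and -0.13, with adjusted p-values of 0.979, 0.404 and 0.195.

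Most of the fall lay between 8 and 16 HPI, where the log2 change was -0.21 (95% interval -0.34 to -0.092, adjusted p = 0.0157) and 15.2% of all genes were called. Between 16 and 24 HPI it was 0.017 (95% interval -0.10 to 0.14, adjusted p = 0.898). Without the term for the replicate number in the model, the adjusted p of Pcsk2 was 0.0557 at 16 HPI and 0.131 at 24 HPI. Replicate 1 at 16 HPI was the library with the largest share of the genes listed as ribosomal and other structural RNA. Without it, the log2 fold change at 16 HPI was -0.35 (adjusted p = 0.00107, edgeR). The gene overlaps the antisense genes Pcsk2os1 and Pcsk2os2, which held 744 and 203 counts over all libraries, and the strand setting of the counting is not given in the sources used here.

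The summed level of the sensory neuron markers, most of which came from the tubulin gene Tubb3, was lower at 16 and 24 HPI. By edgeR, the log2 fold change was negative for 6 of the 6 markers at 16 HPI. At 24 HPI it was negative for 4 of them and positive for 2. The summed level of the 6 markers, all of them tested, was 4788 to 5316 CPM in control, 4105 to 4425 CPM at 16 HPI and 4112 to 4428 CPM at 24 HPI. Of these 6 genes, 1 (Tubb3) was called lower and 0 higher at 16 HPI (edgeR), and 2 were called lower and 2 higher at 24 HPI, when Tubb3 had a log2 fold change of -0.37 (adjusted p = 6.79e-05), Pou4f1 one of 0.20 (adjusted p = 0.00741) and Isl1 one of 0.26 (adjusted p = 0.00747). Tubb3 had 2932 ± 285 CPM in control, 2250.1 ± 235 CPM at 16 HPI and 2285 ± 208 CPM at 24 HPI (SD, n = 3). In a bulk culture, fewer cells of a type and less RNA per cell cannot be told apart, and the part of either in the fall of Pcsk2 was not tested.

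Scg5, the chaperone of the Pcsk2 product, was not called at any time point. It had 294, 302 and 300 CPM in control, 309, 314 and 291 CPM at 1 HPI, and 312, 334 and 288 CPM at 3 HPI. It had 305, 322 and 284 CPM at 8 HPI, 269, 321 and 306 CPM at 16 HPI, and 308, 345 and 318 CPM at 24 HPI. All 3 libraries at 24 HPI were above all 3 controls, and the share of all genes that separated in this way was not counted. The log2 fold change was 0.10 at 24 HPI (95% interval 0.0079 to 0.20, adjusted p = 0.139, edgeR) and -0.025 at 16 HPI (95% interval -0.12 to 0.071, adjusted p = 0.755).

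The ratio of Scg5 to Pcsk2 within a library removes the library's scale. It was 1.77, 1.57 and 1.47 in the control replicates and 1.82, 1.59 and 1.45 at 1 HPI. It was 1.89, 1.75 and 1.69 at 3 HPI, and 1.91, 1.67 and 1.77 at 8 HPI. At 16 HPI it was 2.09, 1.87 and 2.02, and at 24 HPI it was 2.36, 2.13 and 1.98, so that every library of these 2 groups stood above every control. The mean was 1.60 ± 0.153 in control, 1.99 ± 0.110 at 16 HPI and 2.16 ± 0.189 at 24 HPI (SD, n = 3). The ratio contains the counts of Pcsk2, so its rise is not a result separate from the fall of that gene. The mean log2 change within replicates was 0.32 ± 0.13 at 16 HPI and 0.43 ± 0.014 at 24 HPI. At 3 and 8 HPI it was 0.15 ± 0.054 and 0.15 ± 0.095. At each of these times the ratio was higher in 3 of 3 replicates. The two-sided exact permutation of signs gave p = 0.25 at each, the smallest it can give with 3 replicates. Leaving out 1 replicate, an alternative chosen after the data were seen, gave values from 0.24 to 0.36 at 16 HPI and from 0.42 to 0.44 at 24 HPI.

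**Figure D3:**
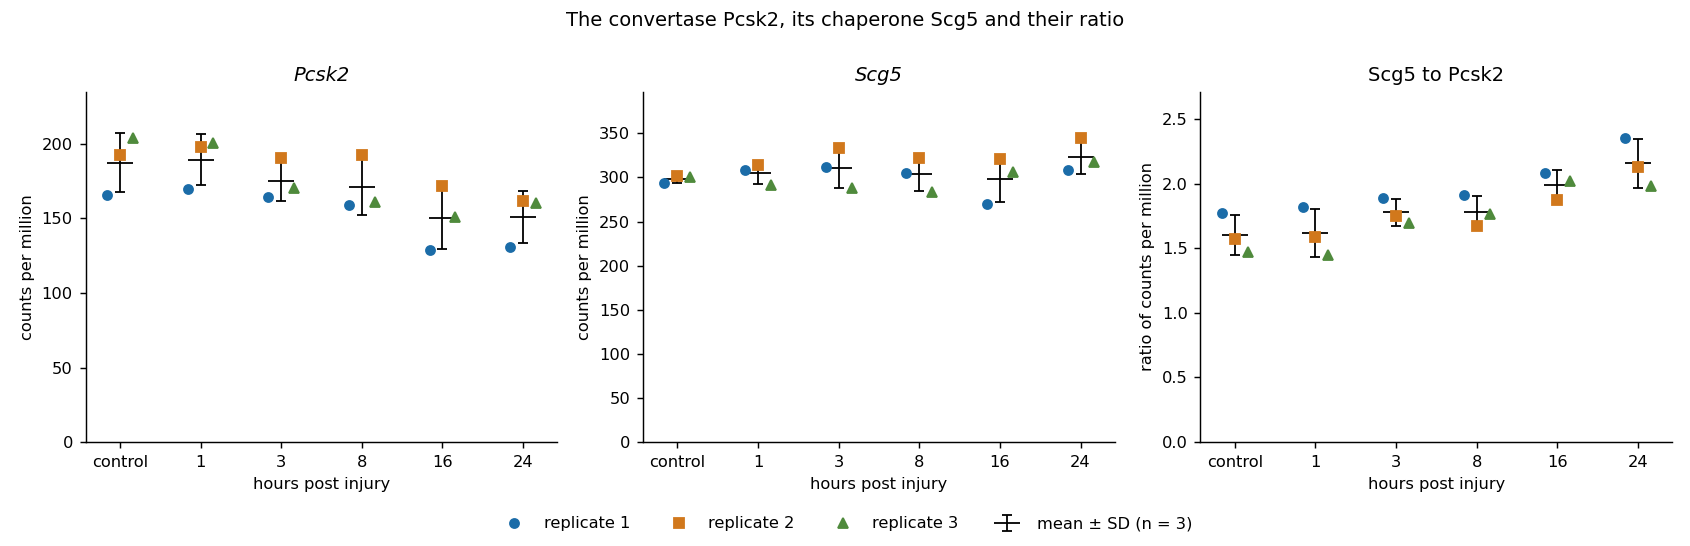
CPM of Pcsk2 and Scg5 and the ratio of Scg5 to Pcsk2 by group, with 1 symbol per replicate and the mean ± SD (n = 3) in black. The ratio lies between 1.47 and 1.77 in control and between 1.98 and 2.36 at 24 HPI.

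Taken in the same way, Pcsk1n and Pcsk1, an inhibitor and its convertase, stood at a ratio of 15.1, 21.4 and 44.9 in the control replicates. The ratio was 17.8, 22.9 and 42.2 at 16 HPI and 12.8, 22.1 and 27.7 at 24 HPI, and the groups overlapped. The mean log2 change within replicates was 0.082 ± 0.17 at 16 HPI (exact permutation p = 0.5) and -0.29 ± 0.38 at 24 HPI (exact permutation p = 0.5), smaller than or close to its spread.

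Vgf, a granin whose transcript is known to respond to neuronal activity, was called higher at 16 HPI alone. It had 393, 339 and 422 CPM in control, 330, 308 and 455 CPM at 1 HPI, and 360, 338 and 443 CPM at 3 HPI. It had 363, 385 and 568 CPM at 8 HPI, 362, 460 and 574 CPM at 16 HPI, and 313, 392 and 456 CPM at 24 HPI. Replicates 2 and 3 were above their controls at 16 HPI and replicate 1 was below its control, and the ranges overlapped. The log2 fold change at 16 HPI was 0.23 ± 0.076 (SE; 95% interval 0.070 to 0.39, adjusted p = 0.0353, edgeR). At 1, 3, 8 and 24 HPI it was -0.11, -0.037, 0.17 and -0.017, with adjusted p-values of 0.584, 0.860, 0.200 and 0.915.

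From 16 to 24 HPI Vgf fell by 0.25 on the log2 scale (95% interval -0.40 to -0.086, adjusted p = 0.0449), in a step where 9.82% of all genes were called. The call at 16 HPI rested on single libraries and on the term for the replicate number. With control replicate 2 left out the adjusted p was 0.14, and with control replicate 3 left out it was 0.248. It was 0.165 without the second and 0.0784 without the third library of 16 HPI, and 0.516 without the replicate term. Without 16 HPI replicate 1 it was 0.0264, with a log2 fold change of 0.28.

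Between the other consecutive time points, the numbers called were low among all genes. In the step from 1 to 3 HPI 0 of 10 genes were called by edgeR and by DESeq2, 1 of them (Pcsk1) had an unadjusted p under 0.05, and 0% of all genes were called by edgeR (0 genes, with 1035 at an unadjusted p under 0.05). In the step from 3 to 8 HPI 0 of 10 were called by both tools, 2 (Vgf and Scg2) had an unadjusted p under 0.05, and 2.3% of all genes were called. In each of the steps from 8 to 16 HPI (Pcsk2) and from 16 to 24 HPI (Vgf), 1 of 10 was called by edgeR and by DESeq2.

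The remaining granins showed no called change. Chga, the founding member of the family, had 272, 260 and 288 CPM in control, 217, 304 and 256 CPM at 16 HPI, and 210, 265 and 263 CPM at 24 HPI. At 24 HPI this gave a log2 fold change of -0.17 (95% interval -0.31 to -0.023, adjusted p = 0.110, edgeR), and replicate 1 was the lowest library from 8 HPI on. Chgb, a close relative of Chga, ranged from 41.3 to 78.8 CPM over all libraries (median 64.4 CPM), with log2 fold changes of 0.080 at 16 HPI (95% interval -0.064 to 0.22) and 0.011 at 24 HPI (95% interval -0.13 to 0.15). Scg3, which binds chromogranin A at the granule membrane, had 380, 479 and 405 CPM in control and 396, 410 and 332 CPM at 24 HPI, which gave a log2 fold change of -0.16 (95% interval -0.30 to -0.014, adjusted p = 0.133).

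Scg2, the precursor of secretoneurin, differed between replicates far more than between groups. It had 116, 68.0 and 77.5 CPM in control, 128, 60.3 and 78.2 CPM at 1 HPI, and 121, 61.8 and 72.9 CPM at 3 HPI. It had 128, 76.3 and 73.0 CPM at 8 HPI, 128, 70.7 and 81.9 CPM at 16 HPI, and 122, 73.7 and 71.9 CPM at 24 HPI. Replicate 1 was the highest library of every group, at 116 to 128 CPM, whereas replicates 2 and 3 lay between 60.3 and 81.9 CPM. The 95% interval of its log2 fold change was -0.058 to 0.21 at 16 HPI and -0.11 to 0.15 at 24 HPI.

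Among the other processing genes, Pcsk1, which encodes the convertase that acts early in the pathway, had the fewest counts, from 80 to 216 in a library. It had 10.4, 8.87 and 5.29 CPM in control, 8.90, 8.71 and 5.27 CPM at 16 HPI, and 12.5, 8.62 and 6.87 CPM at 24 HPI, with replicate 3 the lowest in all 3 groups. Its 95% intervals were the widest of the 10, from -0.38 to 0.17 (log2) at 16 HPI and from -0.081 to 0.44 at 24 HPI. Cpe had 403, 518 and 512 CPM in control, 410, 545 and 488 CPM at 16 HPI, and 422, 563 and 483 CPM at 24 HPI, with 95% intervals of the log2 fold change from -0.13 to 0.099 and from -0.092 to 0.14. Pcsk1n had 157, 190 and 238 CPM in control and 160, 191 and 190 CPM at 24 HPI, a log2 fold change of -0.11 (95% interval -0.23 to 0.0044, adjusted p = 0.194, edgeR).

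**Figure D4:**
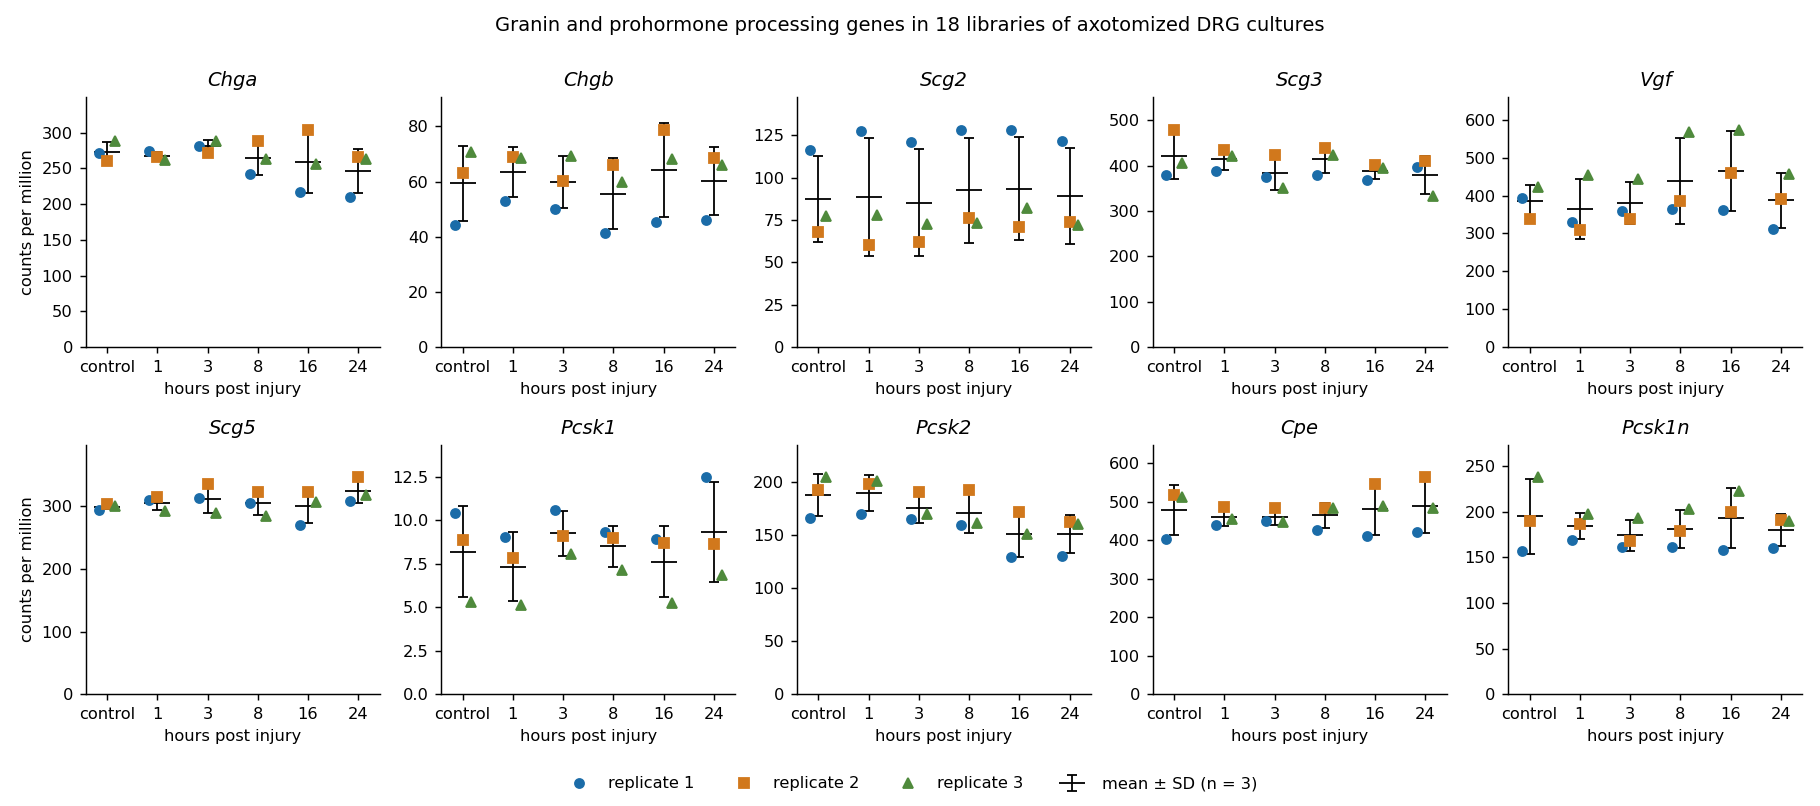
CPM of the 10 genes in all 18 libraries, by group, with 1 symbol per replicate number and the mean ± SD (n = 3) in black. Scg2 replicate 1 lies between 116 and 128 CPM in every group, and Pcsk2 is lowest at 16 and 24 HPI.

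The pattern by replicate number was shared by most of the genes. When the replicate number was tested in place of the time point, a test chosen after the data were seen, 9 of 10 genes were called, all but Chga, beside 60.9% of all genes. Relative to replicate 1, Scg2 was 0.523-fold in replicate 2 and 0.563-fold in replicate 3 (adjusted p = 3.58e-13, edgeR). Chgb stood at 1.37-fold and 1.32-fold, Pcsk1 at 0.812-fold and 0.572-fold, and Vgf at 0.988-fold and 1.26-fold. The highest mean over replicate numbers was 1.81 times the lowest for Scg2 and 1.61 times for Pcsk1, whereas the highest group mean was 1.10 and 1.27 times the lowest. The means over groups were spread more widely than those over replicate numbers only for Pcsk2 (1.26 against 1.20) and Chga (1.14 against 1.11), and both came to 1.08 for Scg5. The labels do not say what a replicate number stands for.

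**Figure D5:**
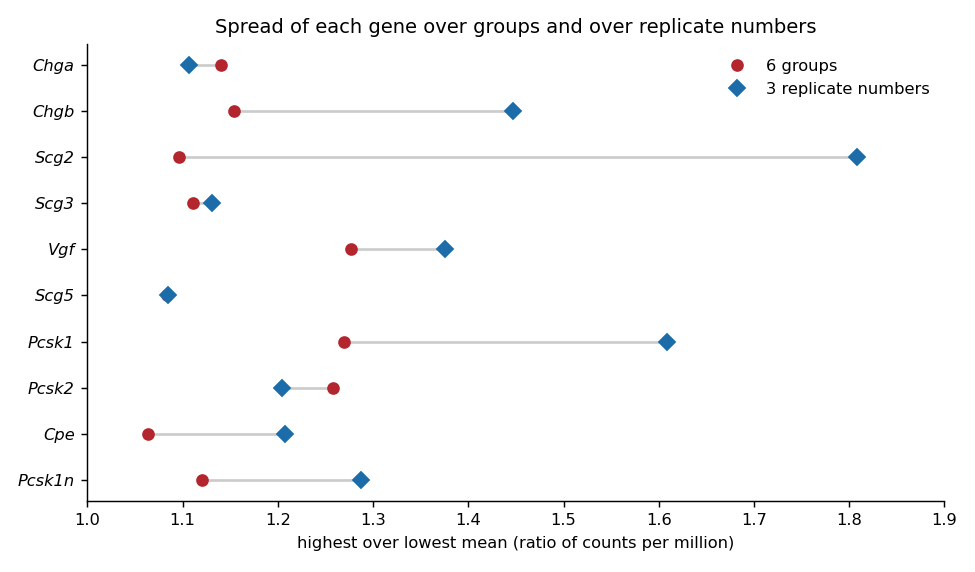
Ratio of the highest to the lowest mean CPM of each gene, over the 6 groups (circles) and over the 3 replicate numbers (diamonds). Scg2 reaches 1.81 over replicate numbers and 1.10 over groups, and Pcsk2 lies at 1.20 and 1.26.

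The genes whose levels followed that of Pcsk2 most closely over the 18 libraries were Ptprk (Pearson r = 0.964), Cntn4 (r = 0.943), Cdh4 (r = 0.940), Dgkz (r = 0.937) and Cntn6 (r = 0.937), out of 13770 genes, on log2 CPM with the replicate effect removed. The libraries share their groups, so r describes these libraries alone. These genes were chosen for their likeness to Pcsk2, which was lower at 16 HPI. Their falls and adjusted p-values at 16 HPI follow from that choice and are not independent results. Ptprk, a receptor tyrosine phosphatase, fell from 6.37 ± 1.61 CPM in control to 3.10 ± 0.819 CPM at 16 HPI (log2 fold change -1.05, adjusted p = 0.00011, edgeR). Cntn4 and Cntn6, which encode contactins of the axon surface, had log2 fold changes of -0.28 (adjusted p = 0.000706) and -0.41 (adjusted p = 0.00394) at 16 HPI. Cdh4, a cadherin, fell by 0.51 (adjusted p = 0.000383), and Dgkz, a diacylglycerol kinase, by 0.43 (adjusted p = 0.0002) on the log2 scale. Of the other 9 genes of the pathway, Chga was nearest to Pcsk2 (r = 0.588) and Vgf farthest (r = -0.515).

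Rest, which encodes a repressor known to bind granin genes in cells other than neurons, differed from control at 16 HPI alone by the same test. It had 0.877 ± 0.215 CPM in control, 1.01 ± 0.367 CPM at 1 HPI, 0.687 ± 0.0544 CPM at 3 HPI and 0.726 ± 0.397 CPM at 8 HPI (SD, n = 3). The level was 3.68 ± 0.235 CPM at 16 HPI and 1.02 ± 0.314 CPM at 24 HPI, with 5 to 65 counts in a library over all groups. The log2 fold change was 2.06 at 16 HPI (95% interval 1.53 to 2.60, adjusted p = 7.87e-06, edgeR) and 0.25 at 24 HPI (95% interval -0.41 to 0.90, adjusted p = 0.648). At 16 HPI, where Rest was higher, the granins had log2 fold changes of -0.11 (Chga), 0.080 (Chgb), 0.074 (Scg2), -0.14 (Scg3) and 0.23 (Vgf). At 24 HPI Pcsk2 was as low as at 16 HPI, and Rest was near its control level. The part of Rest in the levels of these genes was not tested.

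Among other enzymes that modify prohormones, some genes were called in each direction. Of 27 listed, 22 were tested, of which 3 were called higher and 3 lower at 16 HPI, and 3 higher and 5 lower at 24 HPI (edgeR). At 16 HPI this was 13.6% in each direction, beside 10.7% of all genes higher and 11.5% lower, and at 24 HPI 13.6% and 22.7%, beside 5.99% and 9.03%. Without the replicate block 0 were called higher at either time and 1 lower at 24 HPI. At these time points the median of their log2 fold changes was -0.11 and -0.078, beside -0.0022 and 0.0020 over all genes. At 24 HPI Qpct, the glutaminyl cyclase that forms the blocked end of some peptides, rose from 3.30 ± 0.334 to 6.22 ± 1.43 CPM (log2 fold change 0.90, adjusted p = 0.00132). Pam, which amidates the end of neuropeptides, rose from 131 ± 8.73 to 150 ± 0.621 CPM (log2 fold change 0.18, adjusted p = 0.0147), and the aminopeptidase gene Aopep, listed as 2010111I01Rik, rose from 32.3 ± 0.962 to 36.9 ± 2.30 CPM (log2 fold change 0.18, adjusted p = 0.0474). Tpst1, a tyrosine sulfotransferase, fell by 0.33 (adjusted p = 0.00169), Cpd, a carboxypeptidase of the trans-Golgi network, by 0.26 (adjusted p = 0.00326) and Mme, the peptidase neprilysin, by 0.68 (adjusted p = 0.0109) on the log2 scale. Without control replicate 1, 1 enzyme was called higher at either time, and without control replicate 2, 2 were called lower at 24 HPI. At 1, 3 and 8 HPI the list had 0, 0 and 1 called gene.

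Of 57 listed genes of dense core vesicle biogenesis, membrane and release, 55 were tested, of which 3 were called higher and 12 lower both at 16 and at 24 HPI (edgeR), that is 5.45% and 21.8% of those tested. Of all genes 10.7% were called higher and 11.5% lower at 16 HPI, and 5.99% and 9.03% at 24 HPI. Without the replicate block 2 genes of the list were called lower at each time, and 1 and 0 higher. The median log2 fold change was -0.057 at both time points. Without control replicate 3, 6 genes were called lower at 24 HPI, and without control replicate 2, 7. At 16 HPI the motor gene Kif1a, which carries dense core vesicles along axons, fell from 2100 ± 85.5 to 1745 ± 116 CPM (log2 fold change -0.29, adjusted p = 0.000597). Unc13a, a priming factor of vesicle release, fell by 0.30 (adjusted p = 8.89e-05) and Rab27b, a small GTPase of secretory granules, by 0.40 (adjusted p = 0.000162) on the log2 scale. Ccdc186, which takes part in the maturation of dense core vesicles, rose from 60.8 ± 3.41 to 76.0 ± 6.59 CPM (log2 fold change 0.30, adjusted p = 0.000384). Dtnbp1, a subunit of a complex for lysosome-related organelles, had a log2 fold change of 0.23 (adjusted p = 0.0341), and Stx6, a syntaxin of the trans-Golgi network, one of 0.16 (adjusted p = 0.0478). The count called higher at 16 HPI was 1 in place of 3 with DESeq2. At 8 HPI 1 gene of the list was called in each direction, and at 1 and 3 HPI 0 in either.

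Most of the peptide cargo that these enzymes could act on was below the filter. Of 48 listed genes, 14 were tested, and 3 were called higher and 0 lower at 16 HPI, and 1 higher and 0 lower at 24 HPI (edgeR). The share called higher was 21.4% at 16 HPI, beside 10.7% of all genes, and 7.14% at 24 HPI, close to the 5.99% of all genes. The share called lower was 0% at both, beside 11.5% of all genes at 16 HPI and 9.03% at 24 HPI. At 16 HPI Bdnf, a neurotrophin stored in dense core vesicles, rose from 24.6 ± 1.79 to 34.1 ± 4.0 CPM (log2 fold change 0.45, adjusted p = 0.000967), and Calcb, which encodes a form of CGRP, from 24.8 ± 8.01 to 31.0 ± 8.05 CPM (log2 fold change 0.33, adjusted p = 0.014). Nts, the neurotensin precursor, had 4, 3 and 13 counts in the control libraries and 44, 41 and 23 counts at 16 HPI (log2 fold change 2.51, 95% interval 1.68 to 3.35, adjusted p = 0.00011). In the libraries of control, 1, 3 and 8 HPI Nts had 3 to 14 counts, under 1 CPM, so it passed the filter only through 16 and 24 HPI. Its call, and the share called higher that includes it, are therefore not independent of the filter. With a filter of over 1 CPM in all 18 libraries, 0 genes of the list were called higher at 24 HPI. For the lists as for the 10 genes, the comparisons with control share the same 3 control libraries.

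The libraries held 9478891 to 23082327 counts on genes, and 3 counts, the limit of detection, came to 0.130 to 0.316 CPM, which covers counting error only. Counts assigned to no gene made up 25.2% to 33.2% of a library. A list of 10 genes was taken as residual ribosomal and other structural RNA, although it includes the protein-coding gene Lars2. These genes took 2.50% of counts in 16 HPI replicate 1 and 0.951% to 1.66% in the other libraries. Lars2 had 41.6 ± 26.4 CPM in control and 2949 ± 2520 CPM at 16 HPI (SD, n = 3). Mitochondrially encoded genes took 14.9% to 24.1%. All 6 sensory neuron markers were tested. Of the satellite glia markers 4 of 6 passed the filter, with a summed level of 2.62 to 28.4 CPM in control, 3.53 to 14.2 CPM at 16 HPI and 2.95 to 53.3 CPM at 24 HPI, and 0 of the 4 were called at either time. Of the Schwann cell markers 1 of 5 passed it, Mbp at 108 ± 11.6 CPM in control. For myeloid cells 2 of 5 markers passed, with sums of 3.42 to 4.70 CPM in control, 4.87 to 6.0 CPM at 16 HPI and 5.41 to 7.07 CPM at 24 HPI, both above every control. At 16 HPI Cd68 rose (log2 fold change 0.97, adjusted p = 0.00698, edgeR), with 13 to 49 counts in a library against 10 to 24 in control. At 24 HPI 1 of the 2 was called higher. Of all genes 10.7% were called higher at 16 HPI and 5.99% at 24 HPI. Below the filter, mean CPM at 16 HPI was lower than in control for Ptprc, higher for Csf1r and 0 in both for Itgam. For fibroblasts 4 of 5 passed, with sums of 2.40 to 9.94 CPM in control, 4.47 to 13.1 CPM at 16 HPI and 3.83 to 15.3 CPM at 24 HPI. At 16 HPI Dcn rose (log2 fold change 2.07, adjusted p = 1.77e-05), and 1 of the 4 was called higher at 24 HPI. In the libraries of control, 1, 3 and 8 HPI Dcn had at most 17 counts, under 1 CPM. It passed the filter only through 16 and 24 HPI, so its call is not independent of the filter. The part of these non-neuronal cell types in the fall of Pcsk2 was not tested. The 3 endothelial markers summed to at most 1.36 CPM, and 7 markers of endocrine and chromaffin cells, which also make granins, summed to 2.15 to 10.2 CPM.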

How the data were processed

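RNA of 18 libraries was depleted of rRNA and made into cDNA with a SMARTer kit per the labels. The authors deposited raw counts per gene and library, not normalized. The study's methods name cutadapt, STAR on mm10 with GENCODE vM20 and featureCounts, whereas the submitters' processing notes name FastQC, STAR, HTSeq and DESeq2. The 5 closing entries that name no gene, 25.2% to 33.2% of a library, were left out. Names, positions and exon lengths came from GENCODE vM21 (GRCm38), which matched 47224 identifiers and left 419 unmatched. No libraries were identical.

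CPM was taken over counts on genes, and RPKM also over the union of exons. The 13771 genes that exceeded 1 CPM in 3 or more libraries went into edgeR 4.0.16 under R 4.3.3 (TMM, quasi-likelihood F test, two-sided, Benjamini-Hochberg adjustment over all genes) in a fit of all 18 libraries with terms for group and replicate number. A gene was called at an adjusted p under 0.05. The study used DESeq2, run here (1.42.0) as an alternative. Same-numbered libraries of different groups deviated together (r from 0.484 to 0.765 over 45 pairs), so the numbers were taken to pair the libraries. The 90 other pairs had r from -0.577 to -0.042. Deviations from a group mean cancel within the group, so these negative values are no separate support. The fit was tested on simulated data. Python 3.11.15 was used for tables and plots.

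The genes and lists were chosen with earlier results of these data known. Genes named are the 10, in each list the 3 called genes with the smallest adjusted p in each direction at the time with most calls, the 5 genes most correlated with the gene of smallest p over the time course, and Rest. Markers named were those called, or chosen after their values were seen (Mbp, Tubb3, Pou4f1). Motifs were searched on both strands. The alternatives tried were size factors of DESeq2, upper-quartile factors, the DESeq2 test, no replicate block and the 2 compared groups alone. Other filters were at least 10 counts, or over 1 CPM in all 18 libraries. Also tried were fits with the genes listed as ribosomal or structural RNA and the mitochondrial genes left out, and with each library left out.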

Additional observations from a re-analysis of the deposited data

Results flagged for a closer look

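The level of Pcsk2 differed between 8 and 16 HPI, with a log2 change of -0.214 (adjusted p = 0.0157 by edgeR's quasi-likelihood test). The replicates fell from 159, 193 and 161 CPM to 129, 172 and 151 CPM, lower in 3 of 3. That of Vgf differed between 16 and 24 HPI by a log2 change of -0.245 (adjusted p = 0.0449, same test), from 362, 460 and 574 CPM to 313, 392 and 456 CPM, lower in 3 of 3. Both groups of each pair were compared with the same controls, and both calls were lost under some of the alternatives given in the next section.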

How the results depend on the processing

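The replicate block decided the calls. Without it, 0 of the 10 genes were called at 16 HPI, at 24 HPI, in the steps from 8 to 16 and from 16 to 24 HPI and over the 6 groups, with nearly unchanged log2 fold changes of Pcsk2 (-0.34 at 16 HPI, adjusted p = 0.0557, and -0.32 at 24 HPI, adjusted p = 0.131). Under the other 13 alternatives each, Pcsk2 was called at 16 and at 24 HPI, with log2 fold changes from -0.37 to -0.29 and from -0.37 to -0.27. With the 2 compared groups alone, 1 gene was called at 16 HPI (Vgf at an adjusted p of 0.0694) and 2 at 24 HPI. With upper-quartile factors, the step from 16 to 24 HPI had 0 calls (Vgf -0.24, adjusted p = 0.0504), and Pcsk2 had an adjusted p of 0.0524 from 8 to 16 HPI. Leaving out 1 library gave 0 to 1 calls at 8 HPI (1 without control replicate 1, Vgf), 1 to 2 at 16 HPI, 1 to 2 at 24 HPI, and 0 to 1 in each of the 2 late steps. The step of Pcsk2 was lost without 8 HPI replicate 1 (adjusted p = 0.102), 8 HPI replicate 2 (0.0837) or 16 HPI replicate 3 (0.0888), and that of Vgf without 16 HPI replicate 2 (0.19) or 3 (0.0867) or 24 HPI replicate 1 (0.223) or 3 (0.153). Calls gained were Chga at 16 HPI without 16 HPI replicate 2 (adjusted p = 0.0405) and at 24 HPI in the 2 groups alone (0.0364), Scg3 at 24 HPI without 24 HPI replicate 1 (0.0216) and Pcsk1n at 24 HPI without control replicate 1 (0.0334). The cause of these differences was not tested.

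Of 50 log2 fold changes against control, 22, none of them called, changed sign in at least 1 alternative. Scg2 at 1 HPI was 0.0096 without the block, and with upper-quartile factors Cpe at 16 HPI was 0.0077 and Vgf at 24 HPI 0.015. Leaving out 1 library gave, at 1 HPI, Chga -0.10 to 0.00079, Scg5 -0.0043 to 0.047, Pcsk2 -0.030 to 0.063, Scg3 -0.083 to 0.034, Vgf -0.20 to 0.013, Pcsk1n -0.15 to 0.0091 and Scg2 -0.069 to 0.051. At 3 HPI it gave Chga -0.033 to 0.078, Chgb -0.040 to 0.095 and Vgf -0.12 to 0.087. At 8 HPI it gave Pcsk1 -0.018 to 0.19, Scg5 -0.0019 to 0.064, Scg3 -0.073 to 0.044 and Cpe -0.094 to 0.022. At 16 HPI it gave Scg5 -0.045 to 0.0028, Chgb -0.00088 to 0.15, Cpe -0.073 to 0.037 and Pcsk1n -0.098 to 0.053. At 24 HPI it gave Chgb -0.020 to 0.079, Vgf -0.10 to 0.11, Cpe -0.035 to 0.074 and Scg2 -0.033 to 0.054.

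The lists were put through the same alternatives, chosen for them after the data were seen. Without the block, the other processing enzymes had 0 genes called higher at 16 HPI, and 0 higher and 1 lower at 24 HPI, and the dense core vesicle list had 1 higher and 2 lower at 16 HPI and 0 higher and 2 lower at 24 HPI. For that list the count called higher was 1 with at least 10 counts as the filter and 1 with DESeq2 at 16 and at 24 HPI, and 1 with the 2 groups alone at 16 HPI. The peptide cargo list had 1 lower at 16 HPI and 3 higher at 24 HPI with the 2 groups alone, and 0 higher at 24 HPI with a filter of over 1 CPM in all libraries. Leaving out 1 library gave, for the enzymes, 1 to 3 higher and 2 to 5 lower at 16 HPI and 1 to 3 higher and 2 to 5 lower at 24 HPI. It gave for the vesicle list 1 to 2 higher and 10 to 11 lower at 16 HPI and 0 to 2 higher and 6 to 10 lower at 24 HPI, and for the cargo 2 to 3 higher and 0 to 1 lower at 16 HPI and 1 to 2 higher and 0 to 1 lower at 24 HPI. The lowest counts of enzymes were reached without control replicate 1 (1 higher at both times), 24 HPI replicate 2 (1 higher) and control replicate 2 (2 lower at 24 HPI), and the highest without control replicate 3 (5 lower at 16 HPI). Those of the vesicle list were reached without control replicate 2 (1 higher at 16 HPI, 0 at 24 HPI), 16 HPI replicate 1 or 3 (1 higher), 24 HPI replicate 1 (0 higher) and control replicate 3 (6 lower at 24 HPI). With the genes listed as ribosomal or structural RNA and the mitochondrial genes left out of the total, the 10 genes held 0.284% to 0.299% of counts. Pcsk1 had the fewest counts of the 10, at most 216 in a library, and the widest intervals.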
